A study of Mus musculus with 10 samples.

Results

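The DNA replication machinery genes examined here were 47 mouse genes whose products license replication origins, unwind the duplex, and copy and seal the new strands. They were chosen by function, with earlier results of these data known. Each was looked up by its symbol or by a synonym that belonged to 1 gene. The lookup used the names attached to the transcription start sites (TSSs) of ARID2 cluster-1 (Cl-1). All 47 were found among the 21774 protein-coding genes of the RefSeq annotation, 17 on the plus strand and 30 on the minus strand. ARID2 is the subunit that sets the PBAF form of the SWI/SNF chromatin remodeler apart, BRG1 is its ATPase, and Cl-1 is the ARID2-enriched group of TSSs obtained by k-means clustering of the CUT&RUN signal. In CUT&RUN an antibody tethers a nuclease to chromatin, so that DNA beside the bound protein is released and sequenced.

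Spermatogenic cells came from testes of CD1 mice in which spermatogenesis was synchronized. The inhibitor of retinoic acid (RA) synthesis WIN18,446 was given by gavage from P1 to P10, and 1 injection of RA at P11 released the arrested spermatogonia. Cells were taken at P28 and P28.5, when pachytene, diplotene and metaphase spermatocytes were enriched. For each age there were 2 ARID2 libraries, 1 BRG1-G7 library and 1 BRG1-abcam library, named for the antibody, and 1 no IgG control library. The Cl-1 list of an age came from its 2 ARID2 libraries averaged over that control, so a TSS was either in the list or not, and the list held neither depth nor spread between replicates. No test over samples could therefore be made from the lists, and a difference between the ages was not set against replicate error, since the signal tracks were not analysed here.

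In a dividing cell, the origin recognition complex marks origins, CDC6 and CDT1 load the MCM helicase there, and the kinase CDC7 with DBF4 then lets CDC45 and GINS complete the active helicase. DNA polymerases, the sliding clamp PCNA and its loader, and the nuclease and ligase that join Okazaki fragments finish the copy. In the male germline this machinery serves spermatogonial divisions and the S phase just before meiosis, whereas late spermatocytes do not replicate their genome, although the single-strand binding protein RPA and MCM8 also act in meiotic recombination.

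Of the 7144 distinct positions listed at P28, 3219 coincided with an annotated 5′ end of a plus-strand transcript, 733 with the 3′ end of a transcript on the other strand and 6 with the 5′ end of such a transcript. Of the 5193 at P28.5, the corresponding numbers were 2669, 72 and 5. A further 3189 positions at P28 and 2449 at P28.5 coincided with no RefSeq transcript end, so what they mark was not settled by this comparison. Among the positions that did match, a 5′ end on the minus strand was hardly ever the listed point. A minus-strand replication gene could be counted where the start of a plus-strand transcript lay beside its own, and its absence from a list is no evidence that ARID2 was absent from its promoter. The name attached to a position belonged to the gene with the nearest annotated 5′ end for 85.4% of the positions at P28 and 93.6% at P28.5. Each replication gene was therefore counted both by its name and by any listed position, under whatever name, within 2000 bp of one of its 5′ ends.

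By name, 16 of the 47 replication genes were in Cl-1 at P28, against 16.8% of all protein-coding genes. At P28.5, 14 of the 47 were named, against 11.6% of all genes. Both lists named 9 of them, against 8.48% of all genes, 7 were named at P28 alone (8.33% of all genes), 5 at P28.5 alone (3.13%) and 26 at neither age (80.1%). The members' shares were 34.0% at P28, 29.8% at P28.5 and 19.1% at both ages. Among the 24 members with no start on the other strand within 1000 bp, they were 20.8%, 25.0% and 12.5%. By position, 19 of the 47 were listed at P28, against 17.3% of all genes, and 20 at P28.5, against 14.8%, with 14 listed at both ages, against 10.9%. Counts for single roles rest on 2 to 6 genes and are to be read beside the same shares. The grid of the 47 genes by role shows that listed genes occurred in every role group but polymerase alpha-primase, with polymerases delta and epsilon taken as 1 group.

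**Figure D1:**
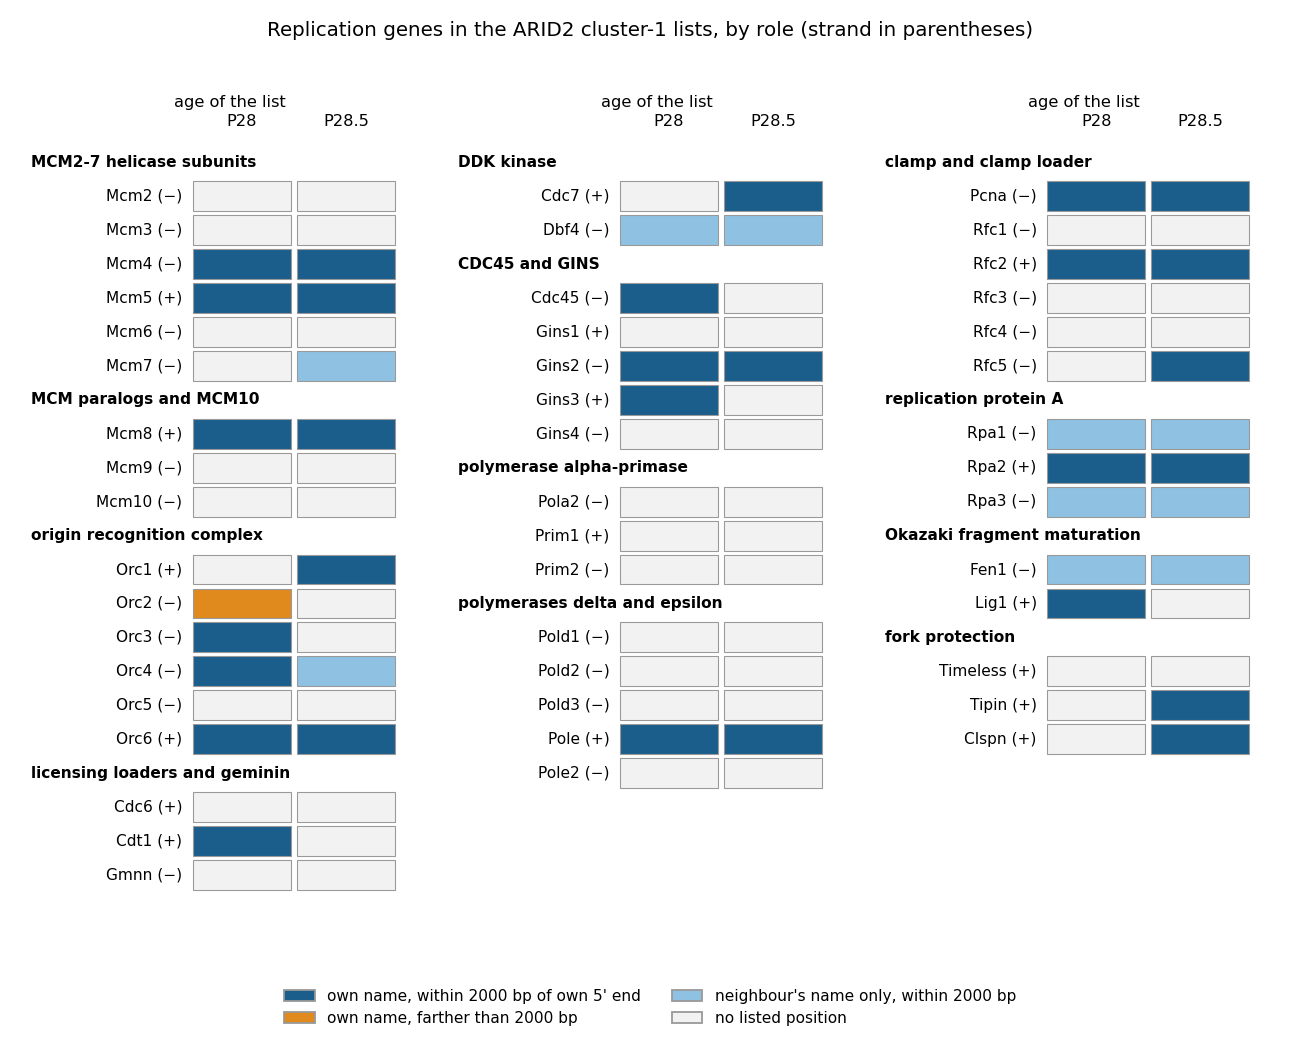
Each row is a replication gene with its strand in parentheses, grouped by role, and the paired boxes show its state in the P28 and P28.5 lists: own name within 2000 bp of its own 5′ end, own name farther away, a neighbour's name within 2000 bp, or no listed position. The boxes hold 16 genes under their own name at P28 and 14 at P28.5, and 4 and 6 genes listed through a neighbour alone.

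Strand divided the genes sharply. Of the 17 plus-strand replication genes, 9 were named at P28, against 26.0% of plus-strand genes, and 10 at P28.5, against 20.4%. Both ages named 6 of the 17, against 14.8%. Of the 30 minus-strand replication genes, 7 were named at P28, against 7.61% of minus-strand genes, and 4 at P28.5, against 2.86%. A plus-strand start lay within 2000 bp of a 5′ end for 18 of the 30. Among those 18, 10 had a listed position at P28, against 34.2% of such genes genome-wide, 10 at P28.5, against 32.8%, and 8 at both ages, against 25.5%. Among the 12 without such a start, 0 had a listed position at either age, where 1.50% of such genes did at P28 and 0.682% at P28.5. These 12 were Mcm2, Mcm6, Mcm9, Mcm10, Gmnn, Pola2, Pold1, Pold2, Pold3, Rfc1, Rfc3 and Rfc4, so the lists say next to nothing about them.

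**Figure D2:**
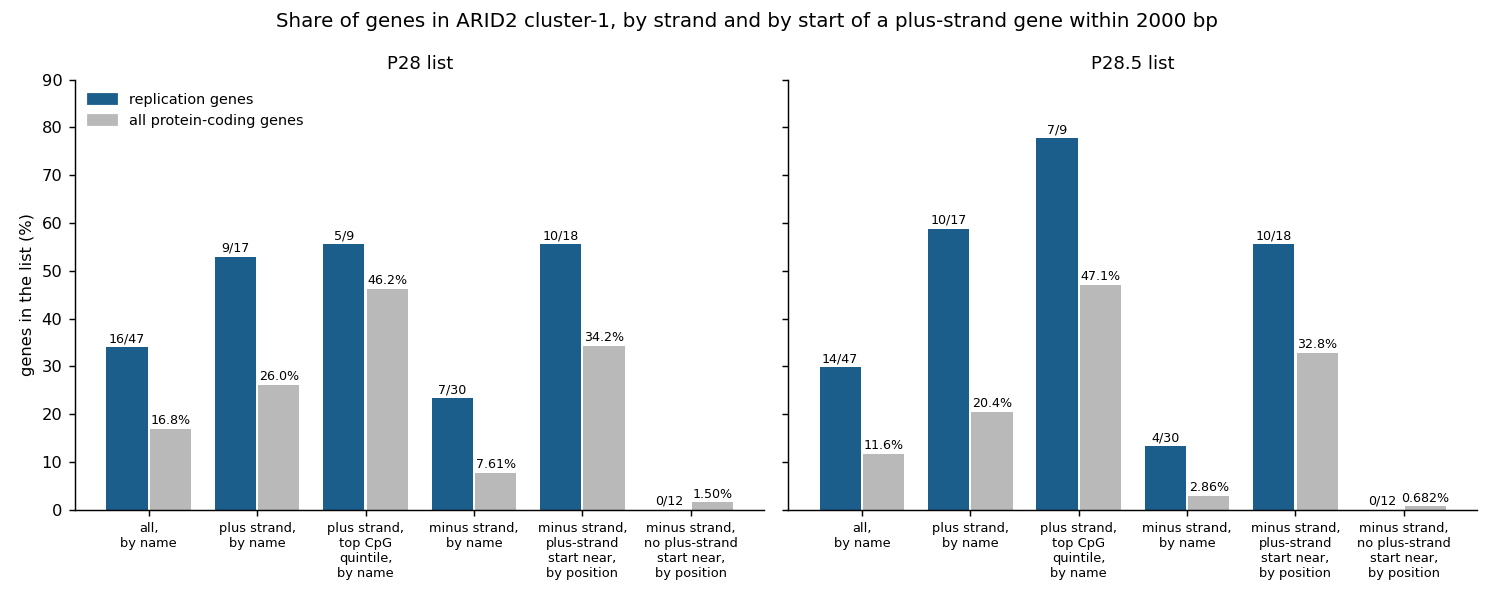
Bars give the percentage of replication genes and of all protein-coding genes in the P28 list and the P28.5 list, by name in the first 4 classes and by position in the last 2: by strand, for plus-strand genes of the top CpG quintile and by whether a plus-strand start lay within 2000 bp; counts of replication genes stand over their bars. In the top quintile at P28 the replication genes, 5 of 9, lie near all genes (46.2%, by name). At P28.5 they lie above them, 7 of 9 against 47.1%, and in the last class 0 of 12 were listed.

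The origin recognition complex (ORC) is the platform on which origins are licensed. By name, 4 of its 6 genes were listed at P28, against 16.8% of all genes, and 2 at P28.5, against 11.6%. By position 3 of the 6 were listed at each age, but not the same 3. They were Orc3, Orc4 and Orc6 at P28, and Orc1, Orc4 and Orc6 at P28.5. Orc6, for the smallest subunit, was listed at both ages at its annotated 5′ end, chr8:85299632 in the GRCm38 (mm10) build used for all coordinates here. Orc1, whose product binds ATP within the complex, was listed at P28.5 alone, at its own 5′ end, chr4:108579454. At P28 the nearest listed position to Orc1 was 35166 bp away. Orc3, on the minus strand, was named at P28 at chr4:34614941, 1 bp inside its own 5′ end. That start is shared with Rars2, the mitochondrial arginyl-tRNA synthetase gene, which carried 3 listed positions there at P28, and neither gene had a position near it at P28.5. Orc4 was named in 4 entries at P28, at chr2:48950084, 3 bp upstream of one of its 5′ ends. It faces Mbd5, a methyl-CpG-binding domain gene, which had 5 positions between 63 and 81 bp upstream of an Orc4 start at both ages, so Orc4 left the P28.5 list by name and stayed by position. Orc2 was named in 7 entries at P28, but at chr1:58522806, 17693 bp upstream of its own start, where the minus-strand gene Fam126b has its 3′ end. No listed position lay near the start of Orc2 at either age, and Orc5 was listed at neither age, its nearest listed position being 882791 bp away at P28.

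The loading factors and their inhibitor come next in the order of licensing. Cdt1, which brings the helicase to the origin, was listed at P28 alone, at its own 5′ end, chr8:122568015. At P28.5 the nearest listed position was 191399 bp from Cdt1. Cdc6, the ATPase that loads the helicase with CDT1, is a plus-strand gene that was listed at neither age. Gmnn, for geminin, the inhibitor of CDT1, was not listed either, and lies on the minus strand without a plus-strand start beside it.

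The ring of the replicative helicase is built from the products of Mcm2, Mcm3, Mcm4, Mcm5, Mcm6 and Mcm7, and 5 of the 6 genes lie on the minus strand. By name 2 of the 6 were listed at P28 and the same 2 at P28.5. Mcm5, the plus-strand gene, had positions chr8:75109508 and chr8:75109509 at both ages, the second being its annotated 5′ end. Mcm4 was named in 3 entries at both ages at chr16:15637443, 43 bp upstream of its start. Its divergent partner Prkdc, for the catalytic subunit of DNA-dependent protein kinase, was listed at both ages too, 466 bp upstream of the Mcm4 start. Mcm7 was listed through Ap4m1, an adaptor complex gene on the opposite strand, at chr5:138172021 and chr5:138172162 at P28.5, the latter 51 bp upstream of Mcm7. At P28 the position nearest to Mcm7 was 10164 bp away. Mcm2, Mcm3 and Mcm6 had no listed position within 2000 bp at either age, and for Mcm2 the nearest was 16009 bp away at P28 and 55926 bp at P28.5.

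Promoter windows of 300 bases, from 250 before to 50 after a start, were available in the RefSeq promoter table of GRCm38.p6 for 38 of the 47 replication genes and for 17492 protein-coding genes. Mcm5 and Mcm8 had a position of their own within 100 bp of the start at both ages together with a match to an E2F word, and the bases just upstream of both that lie in no RefSeq transcript are printed to show where the words lie; having been picked for an E2F word, they do not stand for listed starts in general. Capitals mark E2F words (TTTCCCGC, TTTCGCGC, TTTGCCGC or TTTGGCGC), the CCAAT box (CCAAT), the GC box (GGGCGG) and the ETS word (CCGGAA), each on either strand. The bases before Mcm5 are chr8:75109259-75109467, plus strand, 209 bases that end where the first RefSeq transcript of Mcm5 begins.
Mcm5: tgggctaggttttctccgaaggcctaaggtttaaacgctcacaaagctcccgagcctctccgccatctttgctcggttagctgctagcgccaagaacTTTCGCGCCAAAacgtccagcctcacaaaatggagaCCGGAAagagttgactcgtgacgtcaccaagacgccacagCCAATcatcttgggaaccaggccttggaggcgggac
The capital run at the centre of the Mcm5 sequence holds 2 overlapping E2F matches, whose first bases lie 153 and 149 bp upstream of the listed 5′ end. An ETS word follows at 117 bp and a CCAAT box at 77 bp.

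Mcm8 and Mcm9 encode a second helicase that acts in homologous recombination, and Mcm10 encodes a factor that activates the replicative helicase. Mcm8 was listed in 4 entries at both ages, at its annotated 5′ end chr2:132816141 and 5 bp inside it. It shares its promoter with Trmt6, a tRNA methyltransferase subunit gene on the minus strand, and 82 bases in no RefSeq transcript separate them, at chr2:132816055-132816136, plus strand.
Mcm8: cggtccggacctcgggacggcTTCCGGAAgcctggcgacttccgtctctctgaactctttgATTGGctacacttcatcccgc
These bases hold 2 overlapping ETS matches in the first capital run, 65 and 63 bp upstream of the listed start, and a CCAAT box read on the opposite strand 25 bp upstream. The E2F match that brought Mcm8 into the display lies downstream of the start and is not shown. Mcm9 and Mcm10, both on the minus strand, were listed at neither age, and the position nearest to Mcm9 was 890616 bp away at P28.

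Origin firing needs the DDK kinase, made of CDC7 and its activator DBF4. Cdc7 was listed at P28.5 alone, in 6 entries at 3 positions, chr5:106964315, chr5:106964322 and chr5:106964561, each an annotated 5′ end of Cdc7. At P28 the nearest listed position to Cdc7 was 366523 bp away. Dbf4, on the minus strand, was never named, but its promoter neighbour Slc25a40, a mitochondrial carrier gene, was listed at both ages at chr5:8422820, chr5:8422838 and chr5:8422858. Those positions lay 95, 113 and 133 bp upstream of the nearest Dbf4 start. By position, then, DBF4's gene was listed at both ages and CDC7's at P28.5.

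CDC45 and the 4 GINS subunits turn the loaded ring into a moving helicase. Gins2 was named in 13 entries at both ages, all at chr8:120589531, 456 bp upstream of its start, where the plus-strand noncoding transcript Gm10614 begins in the GENCODE annotation. Gins3 was listed at P28 alone at its own 5′ end, chr8:95633559, and at P28.5 its nearest listed position was 173271 bp away. Cdc45, on the minus strand, was named at P28 at chr16:18811819, chr16:18811837 and chr16:18811868, which lie 107, 125 and 104 bp from the nearest of its 5′ ends. Its divergent neighbour Ufd1, for a ubiquitin-binding partner of the p97 ATPase, was listed 322 bp upstream at P28, and neither gene had a position there at P28.5. Gins1, a plus-strand gene, and Gins4, on the minus strand, were listed at neither age.

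Polymerase alpha-primase lays down the primers, and 0 of the 3 members from it, Pola2, Prim1 and Prim2, were listed at either age. The gene of its catalytic subunit, Pola1, is not among the 47 and was not listed either. Prim1 lies on the plus strand and its nearest listed position was 43713 bp away at P28 and 20131 bp at P28.5. Pole, the catalytic subunit of the leading-strand polymerase epsilon, was listed at both ages at its own 5′ end, chr5:110286319. Its accessory subunit gene Pole2 starts 458 bp from the plus-strand gene Klhdc1 and had no listed position within 2000 bp, the nearest being 7105 bp away at P28. Pold1, Pold2 and Pold3, for polymerase delta, are minus-strand genes without a plus-strand start beside them and were not listed.

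Polymerases delta and epsilon are held on DNA by PCNA, a ring opened and closed by the replication factor C clamp loader. Pcna was named at both ages at chr2:132253246, 66 bp upstream of its start on the minus strand. Rfc2, the plus-strand gene of the loader, was listed at both ages at its own 5′ end, chr5:134582690. Rfc5 was named at P28.5 alone at chr5:117388979, 44 bp inside its start on the minus strand, and at P28 its nearest listed position was 268894 bp away. Rfc1, Rfc3 and Rfc4 were listed at neither age. By name the clamp and its loader thus gave 2 of 6 genes at P28 and 3 of 6 at P28.5.

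Replication protein A (RPA) coats single-stranded DNA. It was the complex with every gene listed by position at both ages, 3 of 3, against 10.9% of all genes. For minus-strand genes with a plus-strand start within 2000 bp, such as Rpa1 and Rpa3, that share was 25.5%. For plus-strand genes of the top CpG quintile, such as Rpa2, it was 34.6%. Rpa2 was listed under its own name at its annotated 5′ end, chr4:132768360. Rpa1 was reached through Smyd4, a methyltransferase-domain gene whose start overlaps it, at 4 positions between chr11:75348433 and chr11:75348471, within 21 bp of an Rpa1 start. Rpa3 was reached through Umad1, listed at its own 5′ end chr6:8259288, 147 bp upstream of the Rpa3 start. The 146 bases between those divergent starts, chr6:8259142-8259287, are given on the plus strand with the same capitals, as an example of a minus-strand replication gene that the lists show only through its partner; the pair was chosen after its values were seen.
Rpa3-Umad1: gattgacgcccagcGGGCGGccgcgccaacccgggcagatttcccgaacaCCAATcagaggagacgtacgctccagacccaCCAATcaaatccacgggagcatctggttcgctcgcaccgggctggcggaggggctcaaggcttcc
The run holds 1 GC box and 2 CCAAT boxes and no E2F or ETS word, and its left end adjoins Rpa3.

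Okazaki fragments are trimmed by the flap endonuclease FEN1 and sealed by DNA ligase I. Lig1 was listed at P28 alone, at its annotated 5′ end chr7:13278826 and at chr7:13277313, an upstream start of Lig1 in GENCODE. At P28.5 the nearest listed position to Lig1 was 242055 bp away. Fen1 was not named, but Tmem258, its neighbour on the opposite strand, was listed at both ages at chr19:10204202, 17 bp from a Fen1 start. Of the 3 fork protection genes, all on the plus strand, 0 were named at P28, against 26.0% of plus-strand genes, and 2 at P28.5, against 20.4%. Tipin, whose product pairs with TIMELESS at the fork, was listed at P28.5 in 7 entries at chr9:64281491, chr9:64281585 and chr9:64281696. Clspn, for claspin, the adaptor that passes the replication checkpoint signal to CHK1, was listed at P28.5 at its own 5′ end, chr4:126556980. Timeless, also on the plus strand, was listed at neither age.

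The plot of distances sets the listed positions beside the annotated starts. The lists are of TSSs around which signal was clustered, so a listed position is not a place where ARID2 was seen to bind. Short distances to a start, and equal positions at the 2 ages, therefore do not locate ARID2. At P28, 9 of 12 own-name positions of plus-strand replication genes were exactly at a RefSeq 5′ end and the farthest, the GENCODE start of Lig1, was 138 bp away, and at P28.5, 13 of 16 were, with the farthest at 50 bp. Of the minus-strand own-name positions, 0 of 9 at P28 and 0 of 4 at P28.5 coincided with an own 5′ end. The replication genes named at both ages had identical sets of positions at the 2 ages in 9 of 9 cases, compared with 82.5% of the 1847 protein-coding genes named at both. On the plus strand, Cdt1, Gins3 and Lig1 were named at P28 alone, 3 of 17 against 11.2% of plus-strand genes. Orc1, Cdc7, Tipin and Clspn were named at P28.5 alone, 4 of 17 against 5.54%. Both counts are set beside genes of like CpG content below.

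**Figure D3:**
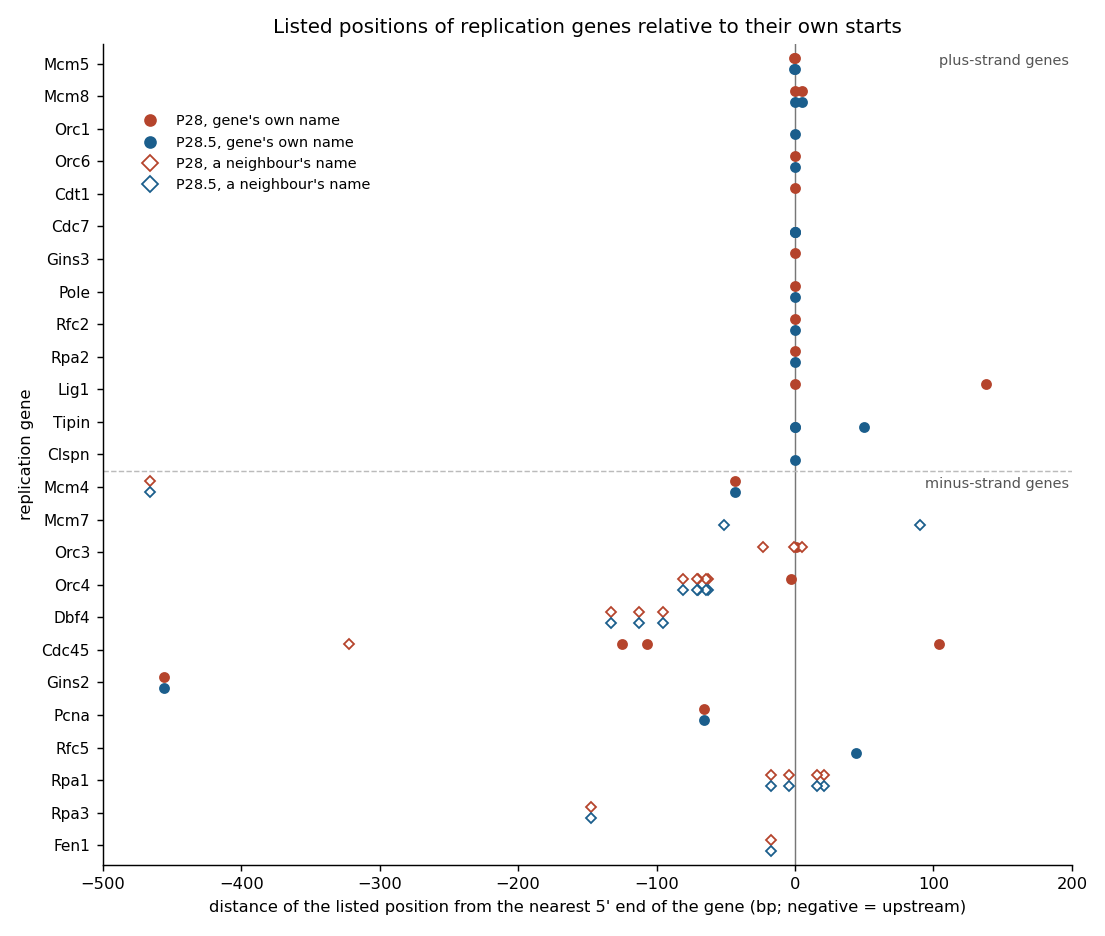
Points give the distance in bp from each listed position to the nearest 5′ end of the replication gene, negative upstream, in the P28 and P28.5 lists; filled circles carry the gene's own name and open diamonds a neighbour's. Positions of plus-strand genes lie at or within 138 bp of 0 and those of minus-strand genes spread upstream to 466 bp. Orc2 at 17693 bp is off the scale. The positions are listed TSSs and do not locate ARID2.

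High CpG content marked these promoters. CpG dinucleotides were counted within 500 bp of the 5′ end and divided by the number expected from base content. The median of this ratio was 0.796 over the 47 genes and 0.587 over all protein-coding genes, and 37 of the 47 were in the top 2 of 5 quintiles. The share of all plus-strand genes in the lists rose with that ratio, from 5.90% in the bottom quintile to 46.2% in the top one for the P28 list, and from 0.842% to 47.1% for the P28.5 list. Of the 9 plus-strand replication genes in the top quintile, 5 were named at P28, against that 46.2%, and 7 at P28.5, against 47.1%. Of the 6 in the fourth quintile, 3 were named at P28, against 41.3%, and 2 at P28.5, against 35.4%. Named at P28.5 alone were 3 of those 9, against 12.7%, and 1 of those 6, against 9.12%. Named at P28 alone were 1 of those 9, against 11.7%, and 2 of those 6, against 15.0%. For these 15 plus-strand replication genes the counts at P28 were near those of genes of like CpG content, and at P28.5 the count was above them in the top quintile and near them in the fourth. The minus-strand replication genes were not compared by CpG content. Their CpG ratio ranged from 0.659 for Rfc2 to 0.959 for Cdc7 among the 13 plus-strand genes listed at either age. Among the 4 listed at neither it was 0.559 for Prim1, 0.722 for Gins1, 0.785 for Cdc6 and 0.863 for Timeless, so the ranges overlapped.

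**Figure D4:**
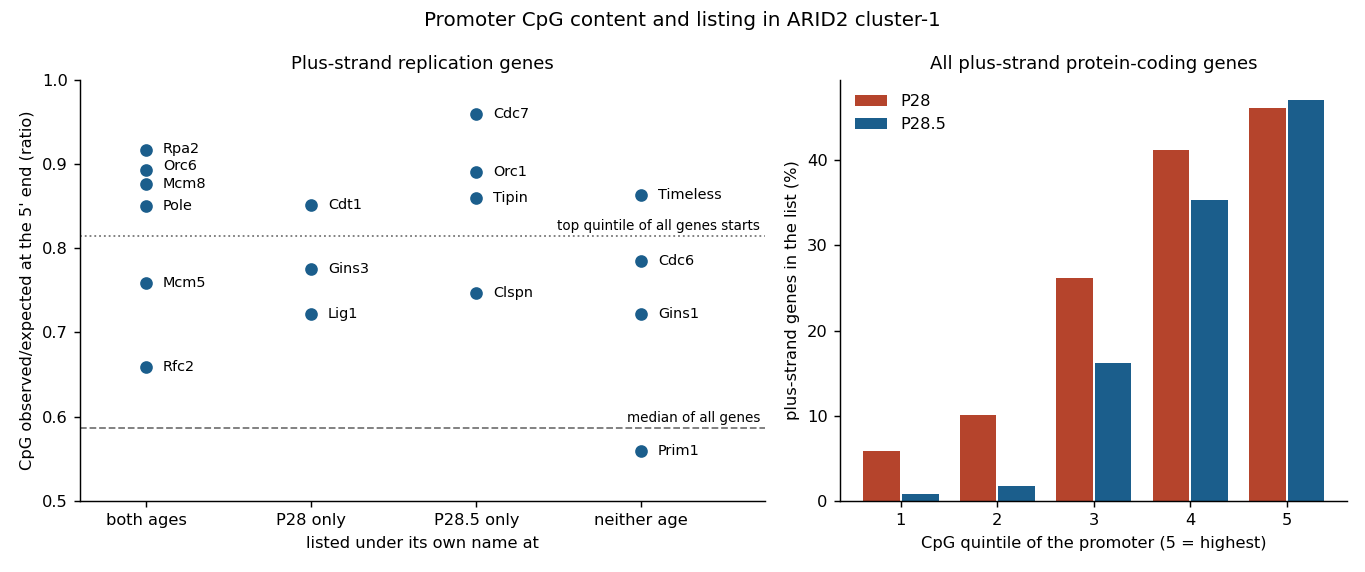
The left plot gives the observed to expected CpG ratio of each plus-strand replication gene by the ages at which it was listed, with the median of all genes (0.587) and the lower bound of the top quintile (0.815) as lines. The right plot gives the percentage of all plus-strand protein-coding genes in the P28 and P28.5 lists by CpG quintile, rising to 46.2% and 47.1%.

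Replication genes are classical targets of E2F factors, and the words in their promoters were counted for that reason. An E2F word was found in 16 of 38 replication gene windows (42.1%), compared with 2.97% of all windows, 5.66% of those in the top CpG quintile and 4.80% of those of plus-strand genes in either list. Among plus-strand replication genes it was present in 7 of 10 that were listed at either age and 1 of 3 that were not. Of those 3, the window of Timeless was set on a start 6003 bp from the reference 5′ end. That of Cdc6 was set on a start 350 bp away, so this count says little about unlisted starts. Among minus-strand replication genes it was present in 8 of 25. Of these 8, Mcm7 and Orc3 had a listed position, whereas Mcm3, Mcm6, Pold1, Pold3, Pole2 and Rfc3 were not listed. Mcm6 had the most matches, 3. The ETS word was in 19 of 38 windows against 19.4% of all, the CCAAT box in 22 against 38.9%, and the GC box in 28 against 47.5%. The CHR element of late cell cycle genes (TTTGAA or TTCGAA) was in 8 windows against 3144 of 17492, the MYB word (TAACTG or CAACTG or TAACGG or CAACGG) in 10 against 26.2%, and the cyclic AMP response element (TGACGTCA) in 2 against 2.38%. A match is a stretch of letters and shows no binding.

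**Figure D5:**
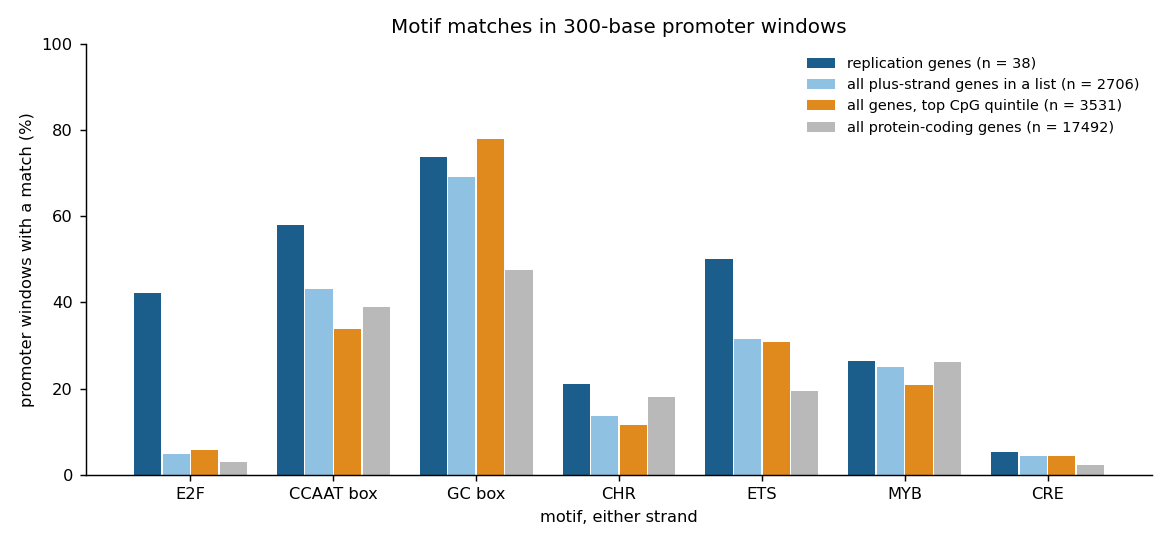
Bars give the percentage of 300-base promoter windows with at least 1 match on either strand to each motif, for the 38 replication genes with a window, for plus-strand genes in either list, for genes of the top CpG quintile and for all protein-coding genes. The E2F word is at 42.1% in replication genes and 2.97% in all genes, whereas the GC box of replication genes (73.7%) lies near that of the top CpG quintile (78.0%).

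Of 42 other genes of the same process, 16 were named at P28, against 16.8% of all genes, 11 at P28.5, against 11.6%, and 9 at both ages, against 8.48%. By position the P28 list held 18 of them, against 17.3%, and the P28.5 list 15, against 14.8%. Among deoxynucleotide supply genes, Rrm1, for the large subunit of ribonucleotide reductase, and Dut, for dUTPase, were listed at P28 alone. Ccne2, for cyclin E2, and Cdc25a, for the phosphatase that activates CDK2, were listed at both ages, each with a position at its own 5′ end. Cdk2 itself was named at P28, 93 bp upstream of its start on the minus strand. E2f1, E2f2 and E2f3 were listed at neither age. Top1 and Top2b, for topoisomerases, and Rnaseh2b, for a subunit of the RNase that removes ribonucleotides, were listed at both ages, and Rnaseh2c at P28, 1141 bp inside its start. Of the chromatin assembly genes, Asf1b and Rbbp4 were listed at both ages and Chaf1a at P28.5. Chaf1b and Nasp were named at P28 by positions 8195 bp downstream and 7834 bp upstream of their starts. Ticrr, which brings CDC45 to origins, and Pole3, a small subunit of polymerase epsilon, were listed at both ages, Lrwd1, for an ORC-associated protein, at P28.5, and Atad5, for the factor that unloads PCNA, at P28. Through a neighbour alone, Recql4, Donson and Chtf18 were listed at both ages, Rnaseh2a at P28 and Chtf8 at P28.5. The rest of the 42 were not listed.

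Other chromosome biology genes were counted to place the replication genes beside them. Of 59 DNA repair genes, 20 were named at P28 and 21 at P28.5, and of 38 kinetochore genes, 10 and 11, where 16.8% and 11.6% of all genes were. On the plus strand alone the counts were 19 and 21 of 33 repair genes and 10 and 11 of 18 kinetochore genes, beside 9 and 10 of 17 replication genes and 26.0% and 20.4% of plus-strand genes. On the minus strand the counts by name were 1 and 0 of 26 repair genes and 0 and 0 of 20 kinetochore genes, beside 7 and 4 of 30 replication genes and 7.61% and 2.86% of minus-strand genes. By position on that strand they were 8 and 11 of 26, 5 and 6 of 20, and 10 and 10 of 30, where 9.58% and 8.62% of minus-strand genes were listed. By position on both strands, 28 and 33 of the 59 repair genes and 16 and 17 of the 38 kinetochore genes were listed, beside 19 and 20 of the 47 replication genes and 17.3% and 14.8% of all genes. Markers of cell types were looked up as a check of the labelled cells, beside the 16.8% of all genes named at P28 and the 11.6% at P28.5. Of 8 spermatogonial genes, 0 were named at either age. Of 8 spermatocyte genes, Sycp3 was named at both ages, Hormad1 at P28.5, and 6 at neither age. Of 8 round spermatid genes, Tnp1 was named at P28 by a position 825 bp from its start and Spaca1 by a position 25193 bp from its start, and 0 were named at P28.5. Of 8 Sertoli cell genes, Cldn11 was named at P28, by a position 52934 bp from its start. The lists hold no expression, so these names do not tell which cells were present.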

How the data were processed

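ARID2 CUT&RUN was performed in spermatogenic cells of synchronized testes. Per the submitters' processing notes and the study's methods, the authors aligned reads to mm10 with Bowtie2, handled alignments with SAMtools, computed deepTools tracks as log2 ratios to the control, averaged replicates and clustered the signal around TSSs by k-means. The deposited lists hold positions and gene names, not counts or signal. BRG1 libraries and signal tracks were not analysed here.

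Names were matched to RefSeq (GRCm38.p6), as written or through a synonym of 1 gene: of 4095 names at P28, 3985 and 100 matched, and of 2707 at P28.5, 2640 and 62. Distances were taken to 5′ ends of 119251 transcripts. Positions were read as deposited. Promoter words were searched on both strands in the window nearest the reference 5′ end. Members and gene lists were chosen with earlier results of these data known, and 1 further pathway gene is not reported here. The Mcm5 and Mcm8 sequences followed a rule: own position within 100 bp at both ages, an E2F word, at most 6, none from chromosome 18. The Rpa3-Umad1 sequence did not follow that rule and was chosen after its values were seen. Alternatives changed the counting rule, distance, strand and background. Python 3.11.15, numpy 2.4.6 and matplotlib 3.10.9 were used, and the counting was tested on simulated lists.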

Additional observations from a re-analysis of the deposited data

How the results depend on the processing

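Counting by position, by own name within 2000 bp, or by symbols as written kept the members' shares at P28 and P28.5 within 1.5 times the values by name. On the plus strand alone the share was 52.9% at P28, 58.8% at P28.5 and 35.3% at both ages. Without members that had a start on the other strand within 1000 bp it was 20.8% at P28, 25.0% at P28.5 and 12.5% at both ages. The values at P28 and at both ages lie nearer the 16.8% and 8.48% of all genes. The value at P28.5 stayed within 1.5 times that by name, beside 11.6% of all genes. The share of all genes without such a start was not counted. At both ages the members' share was 29.8% by position, within 2000 bp and within 500 bp alike. Other alternatives were chosen after seeing the data. The minus strand alone gave 13.3% at P28.5 and 10.0% at both ages, against 2.86% and 2.14% of minus-strand genes. Members with a plus-strand start within reach, counted by position, gave 54.3% at P28, 57.1% at P28.5 and 40.0% at both ages. By position, 25.0%, 20.9% and 15.2% of all plus-strand genes were listed. For all minus-strand genes with a plus-strand start within 2000 bp, the shares were 34.2%, 32.8% and 25.5%. The alternatives by strand counted other members and those by position changed the counting rule. The alternative of a plus-strand start within reach changed both, and the cause was not tested. Without olfactory and vomeronasal receptors the background was 17.8% at P28, 12.4% at P28.5 and 9.09% at both ages.

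Leaving out each ARID2 replicate was not run, since the lists hold no value per replicate. No paired analysis was possible because the lists used here were made from averaged replicates; the tracks of single libraries were not analysed here. Depth behind a listed TSS is unknown from these lists, and the 12 minus-strand members without a plus-strand start nearby belong to a class that was rarely listed.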
